A study of Mus musculus with 8 samples.

Results

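The genes described here are 40 genes of fatty acid and cholesterol metabolism, chosen by name, and all 40 were among the 17921 genes of the deposited count table. They cover the uptake and activation of fatty acids, their oxidation in mitochondria and peroxisomes, their synthesis, storage in lipid droplets, the release of lipid from lysosomes, and the export and synthesis of cholesterol. Their levels were read in alveolar macrophages, the resident phagocytes of the air spaces, against the other cell types of the same lung grafts, and in HLA→B6 against B6→B6 grafts. The counts came from droplet single-cell RNA sequencing of transplanted left lungs, 1 graft per mouse, collected at 1 month. In the B6→B6 group (n = 5) donor and recipient were C57BL/6 (B6) mice, and in the HLA→B6 group (n = 3) the donor was a C57BL/6 mouse with the transgene Tg(HLA-A2.1)1Enge, which carries human HLA-A2, and the recipient was B6. The mice were male, none received immunosuppression, and the sources used here do not state their age. The HLA→B6 graft is a model of bronchiolitis obliterans syndrome (BOS), a form of chronic lung allograft rejection. It rests on a single human HLA transgene in the donor, and a graft holds cells of donor and recipient, which the labels do not tell apart.

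Alveolar macrophages take up and degrade pulmonary surfactant, which is mostly phospholipid with cholesterol, and are therefore known for a large lipid traffic. Fatty acids freed in lysosomes are bound to coenzyme A by acyl-CoA synthetases, and are then oxidized or esterified into lipid droplets. Cholesterol leaves the lysosome through the proteins NPC2 and NPC1, and is esterified, or exported by ABC transporters that the nuclear receptor LXR induces, whereas its synthesis is driven by the factor SREBF2.

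The 2 peroxisomal thiolase genes Acaa1a and Acaa1b are close copies of each other, and only Acaa1b passed the threshold in the main comparison of the groups. A difference between the copies was not tested. Promoter sequences are shown for these 2 and for the cholesterol synthesis gene Hmgcs1, 3 members whose data or windows are referred to below. Each runs from 250 bases before to 50 bases after the RefSeq transcript start (build GRCm38.p6) and is written 5′ to 3′ on the strand of the gene. Capitals mark CCAAT, the core bound by NF-Y, on either strand in the 2 thiolase genes, and the letters TCACNCCAC, a sterol regulatory element core, in Hmgcs1.
Acaa1a (chr9:119341044-119341343, plus strand): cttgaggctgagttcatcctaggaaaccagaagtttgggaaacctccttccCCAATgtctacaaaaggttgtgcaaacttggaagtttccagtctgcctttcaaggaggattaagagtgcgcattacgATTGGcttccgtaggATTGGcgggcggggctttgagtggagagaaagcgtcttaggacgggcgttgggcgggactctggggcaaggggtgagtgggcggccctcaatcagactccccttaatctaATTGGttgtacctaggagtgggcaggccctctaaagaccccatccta
Acaa1b (chr9:119157044-119157343, minus strand): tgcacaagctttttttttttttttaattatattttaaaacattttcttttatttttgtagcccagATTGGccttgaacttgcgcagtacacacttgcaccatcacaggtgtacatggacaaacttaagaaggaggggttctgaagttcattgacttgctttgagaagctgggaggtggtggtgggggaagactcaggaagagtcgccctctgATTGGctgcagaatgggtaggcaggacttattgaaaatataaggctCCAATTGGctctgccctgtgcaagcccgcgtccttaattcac
Hmgcs1 (chr13:119690101-119690400, plus strand): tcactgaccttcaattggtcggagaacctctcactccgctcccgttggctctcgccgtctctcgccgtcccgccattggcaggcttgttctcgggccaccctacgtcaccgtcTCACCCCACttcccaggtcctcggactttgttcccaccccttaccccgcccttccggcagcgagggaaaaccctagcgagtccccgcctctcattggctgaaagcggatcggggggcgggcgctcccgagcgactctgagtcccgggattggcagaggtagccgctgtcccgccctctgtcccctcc

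The windows of Acaa1a and Acaa1b each held 4 matches to CCAAT or its reverse complement, of which a pair overlaps in Acaa1b, and 59.4% of the bases aligned between them were identical. A RefSeq window was found for 30 of the 40 members. CCAAT stood on either strand in 37.4% of all 32851 promoter windows of this length, and in 18 of the 35 windows of those 30 members, belonging to 17 of them. TCACNCCAC stood in 1.24% of all windows, and in 3 of those 35, of Acsl1, Ehhadh and Hmgcs1.

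Alveolar macrophages numbered 105 to 685 per B6→B6 mouse and 130 to 514 per HLA→B6 mouse, with 303344 to 3672924 UMIs (unique molecular identifiers, each 1 transcript molecule) summed over them per mouse. Their median depth ran from 803 UMIs per cell in B6→B6 replicate 2 to 7144 in HLA→B6 replicate 2. In 4 libraries, called the linked libraries here (HLA→B6 replicate 2 and replicates 1 to 3 of B6→B6), more cell barcodes recurred than the library sizes predict. B6→B6 replicate 3 joined this set through replicates 1 and 2 of its group. With HLA→B6 replicate 2 it shared 23 barcodes where 12.0 were expected, too few to count as linked. The second replicates of the groups had 160 in common, of which 128 were alveolar macrophages in both. An alternative left out 793 cells whose barcode occurred in more than 1 library, keeping a cell only where it was at least 5 times as deep as the next with that barcode, which took the alveolar macrophages of B6→B6 replicate 2 from 284 to 136, and results are given with and without them. HLA→B6 replicate 2 also stood apart in the markers of the cell type, with 305 normalized CPM of Chil3 against 5837 to 7772 in the B6→B6 mice and 2884 and 3737 in the other HLA→B6 mice.

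The label of these cells was checked against 7 marker genes. Their summed level was highest in alveolar macrophages among the 9 cell types with at least 10 cells in 3 or more mice, but it was lower in the HLA→B6 mice (8576 to 9638 CPM, UMIs scaled to a common total per mouse) than in the B6→B6 mice (13084 to 14788 CPM), and Siglecf, Marco and Krt79 fell with an adjusted p under 0.05 while Ctsd rose. UMIs of C1qa, C1qb or C1qc, the complement C1q genes, were found in 61.8%, 80.0% and 56.9% of the alveolar macrophages of HLA→B6 replicates 1 to 3. In B6→B6 replicates 1 to 5 the shares were 27.7%, 45.4%, 20%, 1.61% and 1.90%, and in cells with at least 1000 UMIs they were 2.20%, 10.8%, 15%, 1.52% and 1.11%, against 62.2%, 82.5% and 59.0% in the HLA→B6 mice. The comparison of the groups was therefore repeated in the C1q-free alveolar macrophages, an alternative added after these values were seen. The 4 epithelial markers summed to 20.3 to 423 CPM in the alveolar macrophages of B6→B6 mice and to 1.36 to 61.5 CPM in those of HLA→B6 mice. Of these, Epcam fell (33.0 ± 21.8 against 1.61 ± 1.57 normalized CPM, without overlap, log2 fold change -3.89, adjusted p 0.00774), Scgb1a1 reached 364 normalized CPM in 1 B6→B6 mouse, and Sftpc was at 0 in 6 of 8 mice. Of the other lists, the 4 neutrophil markers summed to 36.3 to 148 CPM in B6→B6 and 95.0 to 580 CPM in HLA→B6 mice. Csf3r, the 1 that passed of the 3 tested, rose without overlap (log2 fold change 1.21, adjusted p 0.0372 by edgeR). Red blood cell genes summed to 347 to 11937 CPM and 0.711 to 403 CPM. The 4 monocyte markers summed to 22.6 to 118 CPM in B6→B6 and 58.8 to 326 CPM in HLA→B6 mice. Of the 3 tested, 1 passed, Ly6c2, which rose (adjusted p 0.0296 by edgeR), with 282 normalized CPM in HLA→B6 replicate 2. The 3 plasma cell markers summed to 0 to 20.9 CPM and 32.7 to 75.7 CPM, and Jchain, the 1 tested, rose (adjusted p 0.0242 by edgeR). The part of these lists in the results was not tested.

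Alveolar macrophages had more of 20 of the 40 members than the other cells of the same graft in all 8 mice. The share of all genes that do so was not determined, so this count is not read as a trait of the members. Levels across types are given as CPM, as the mean ± SD over mice. Since the cell types were drawn by clustering of these counts, they are a description without a test. At least 2-fold more CPM in alveolar macrophages than in all other cells of the same mouse, in all 8 mice, was found for 8 members, Acaa1b, Soat1, Plin2, Lipa, Npc1, Nr1h3, Abca1 and Abcg1, and for 3.9% of the 11102 genes compared. Among the 9 cell types compared, which leave out type 2 pneumocytes and plasma cells, the mean was highest in alveolar macrophages for 22 of the 40 members. For this count, too, the share over all genes was not determined.

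**Figure D1:**
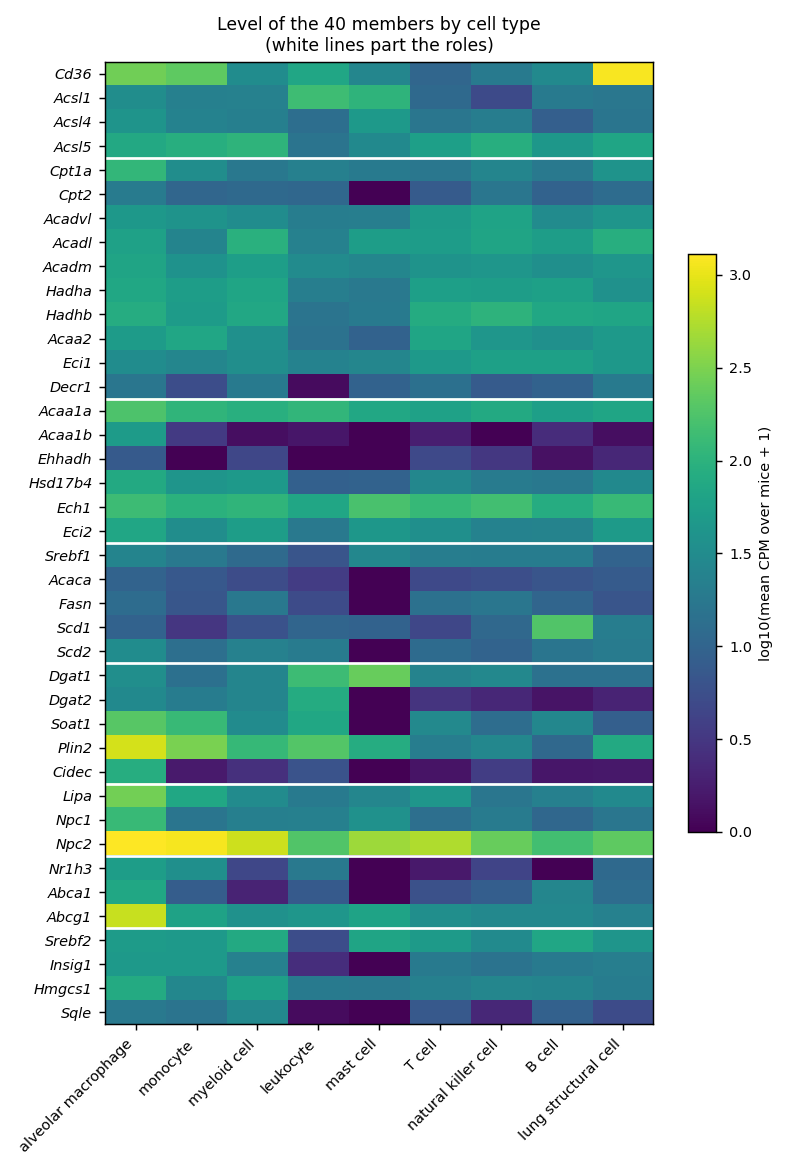
Mean level of the 40 members (rows, in the order of their roles, parted by white lines) in 9 cell types (columns), as log10 of the mean CPM over mice plus 1. Plin2, Lipa, Npc2 and Abcg1 are bright in the alveolar macrophage column, whereas Cd36 is brightest in lung structural cells, Scd1 in B cells and Dgat1 in mast cells.

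Abcg1, which exports cholesterol to lipoproteins, stood at 710 ± 349 CPM in alveolar macrophages (n = 8) and 33.0 ± 8.10 CPM in all other cells. It was followed by mast cells at 62.1 ± 56.2 CPM (n = 3) and monocytes at 60.8 ± 28.6 CPM (n = 8), whose values overlap. Abca1, the transporter for lipid-poor apolipoproteins, was at 69.99 ± 28.4 CPM against 9.94 ± 4.34 CPM in other cells, and Nr1h3, which encodes LXRα, at 52.7 ± 12.6 CPM against 8.12 ± 3.81 CPM. In both, all 8 mice had more in alveolar macrophages.

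Plin2, the coat protein of lipid droplets, reached 812 ± 83.9 CPM in alveolar macrophages (n = 8), with no overlap with monocytes, the next type, at 304 ± 71.3 CPM (n = 8). Lipa, the lysosomal acid lipase that frees cholesterol and fatty acids from their esters, was at 277 ± 66.0 CPM, and again no mouse overlapped with the monocytes at 70.4 ± 19.1 CPM. Npc2, the soluble lysosomal carrier that hands cholesterol to NPC1, differed in this respect. It stood at 1290 ± 742 CPM in alveolar macrophages and at 1157 ± 138 CPM in monocytes, a gap smaller than the spread. Over the 32 cells labelled type 2 pneumocytes, pooled, it was at 5233 CPM (95% Poisson interval 4936 to 5543, counting error only). These cells came from B6→B6 replicates 1 to 4 (9, 1, 7 and 5 cells) and HLA→B6 replicate 1 (10 cells). In T cells Npc2 was still at 547 ± 39.3 CPM.

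Acaa1b and Cidec had few UMIs outside alveolar macrophages. Acaa1b, a peroxisomal thiolase that performs the last step of beta-oxidation, was at 50.2 ± 50.9 CPM there and at 0.690 ± 0.670 CPM in all other cells, with 11 UMIs over the B6→B6 and 10 over the HLA→B6 mice. Cidec, which lets lipid droplets grow by fusion, was at 86.1 ± 73.1 CPM there and at 0.563 ± 0.712 CPM in other cells. Their SDs span both groups, whose difference is described below.

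Other members were not highest in alveolar macrophages. Cd36, the fatty acid and lipoprotein scavenger receptor, was at 1216 ± 425 CPM in lung structural cells and 271 ± 98.7 CPM in alveolar macrophages. Scd1, a desaturase that makes monounsaturated fatty acids, was at 186 ± 20.6 CPM in B cells with no overlap with any other of the 9 types, at 8.64 ± 6.42 CPM in alveolar macrophages, and at 2515 CPM over the 32 type 2 pneumocytes (interval 2310 to 2732). Fasn, fatty acid synthase, was low in alveolar macrophages (11.5 ± 7.31 CPM) and at 497 CPM in the type 2 pneumocytes (interval 408 to 599). Dgat1, which makes triglyceride, was highest in mast cells (246 ± 168 CPM, n = 3), and Dgat2, its unrelated partner enzyme, in the cells labelled leukocyte (80.2 ± 29.4 CPM, n = 7), which carried the neutrophil markers.

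In alveolar macrophages of HLA→B6 grafts, 4 of the 33 members that had enough counts to be tested passed an adjusted p of 0.05 (edgeR's quasi-likelihood test, Benjamini-Hochberg over all 5798 genes tested). Acaa1b and Cidec fell, and Npc2 and Acsl5 rose. Of all genes tested, 6.36% were called higher and 5.92% lower, so 2 of 33 in each direction is close to the share of all genes. With library size as the only scaling the calls over all genes were 223 higher and 690 lower, and those of members 1 higher (Npc2) and 9 lower, with the median of all genes at -0.26. The median log2 fold change of the 33 members was -0.03, as it was over all genes tested (-0.03). Cpt2, Decr1, Ehhadh, Acaca, Fasn, Scd1 and Sqle had too few UMIs to be tested. Values per mouse in this comparison are normalized CPM, which are CPM scaled by TMM factors, and in a sum over cells fewer cells with a transcript and less of it per cell cannot be told apart.

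**Figure D2:**
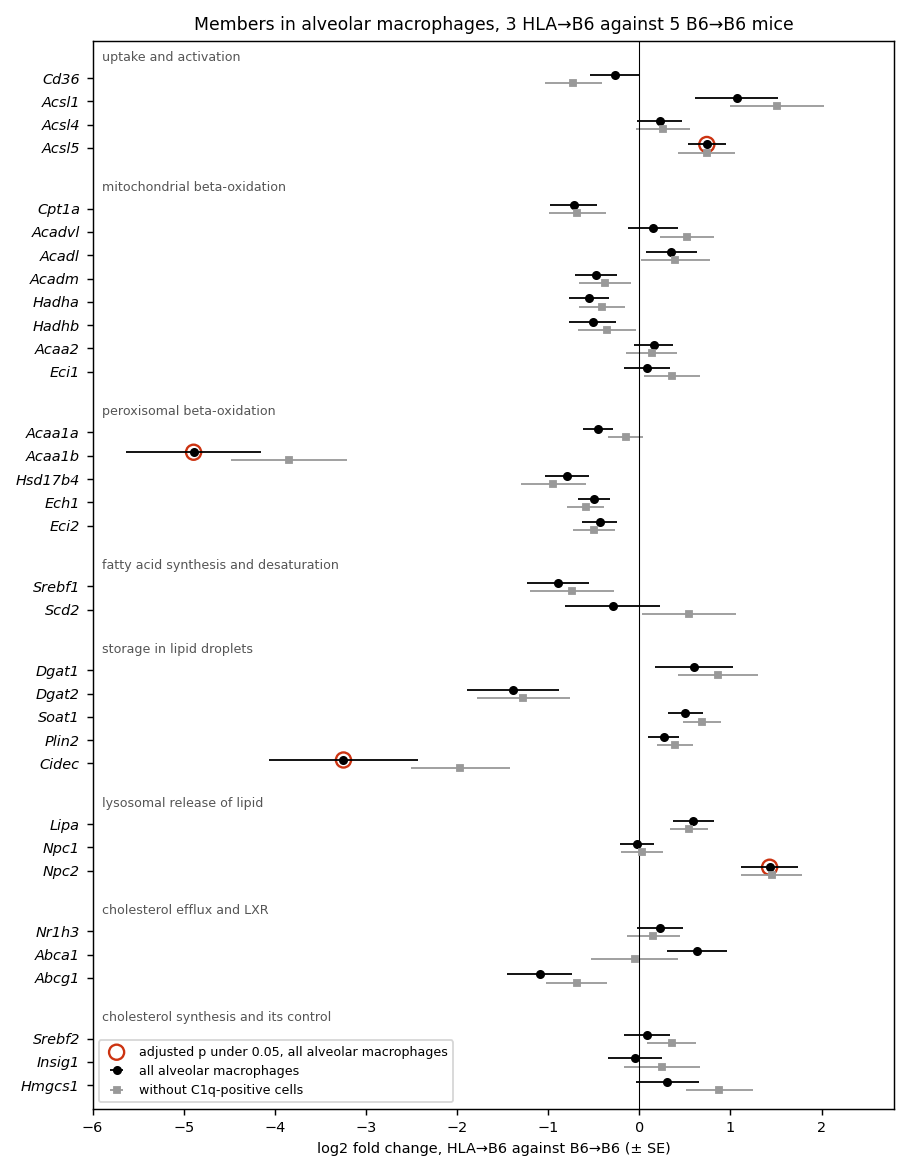
Log2 fold change of the 33 tested members in alveolar macrophages, 3 HLA→B6 against 5 B6→B6 mice (horizontal axis, ± SE), grouped by role, in all alveolar macrophages (black circles) and in the C1q-free ones (grey squares). Red rings mark Acaa1b, Cidec, Npc2 and Acsl5, which passed the threshold in all alveolar macrophages.

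Acaa1b (chr9:119148023-119157093, minus strand, GRCm38) was at 132, 38.6, 35.3, 78.0 and 101 normalized CPM in B6→B6 replicates 1 to 5 and at 6.27, 0.337 and 3.12 in HLA→B6 replicates 1 to 3, where it rested on 8, 1 and 1 UMIs. All 3 HLA→B6 mice lay below the lowest B6→B6 mouse. The log2 fold change was -4.89 (SE 0.74, adjusted p 0.00602). It passed the threshold in all 38 alternatives run, with values between -7.13 and -3.34. These include the linked libraries alone, and fits that combine a left-out mouse with another set of cells. In the C1q-free cells it was -3.84 (SE 0.63, adjusted p 0.00361), and without HLA→B6 replicate 2 it was -3.70 (SE 0.65, adjusted p 0.0164). Within the unlinked libraries it was -3.94. Within the linked libraries it was -7.13, but HLA→B6 replicate 2, with 1 UMI, is the only HLA→B6 mouse there.

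At equal depth, fewer HLA→B6 cells held a transcript of Acaa1b. In cells thinned to 1000 UMIs, 4.59% to 14.8% of the alveolar macrophages of B6→B6 mice (median 6.86%) and 0.0662% to 0.870% of those of HLA→B6 mice had an Acaa1b UMI. Without thinning the shares were 4.58% to 21.0% and 0.195% to 1.64%. The thinning left out 295 of 1423 and 189 of 1071 alveolar macrophages with less depth. In T cells, which should lack the gene, the thinned shares were between 0% and 0.489%, so the lowest HLA→B6 values lie within this background. Median depth was 2791.5 UMIs in alveolar macrophages and 1648 in T cells.

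Acaa1a, the close copy of Acaa1b (chr9:119339676-119350299, plus strand), was at 248, 178, 188, 185 and 178 normalized CPM in the B6→B6 mice and at 144, 131 and 156 in the HLA→B6 mice. The groups did not overlap, but the log2 fold change of -0.45 (SE 0.16) did not pass the threshold (adjusted p 0.0957), and in the C1q-free cells it was -0.15 (SE 0.19, adjusted p 0.735). The longest transcripts of the 2 genes share 93.3% of their aligned bases, and 82.8% over their last 300 bases, where the reads of this assay fall. Reads that fit both could be assigned to neither or to the wrong copy, so the split between the copies is uncertain.

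The other peroxisomal genes did not pass. Hsd17b4, the bifunctional enzyme for branched and very long chains, was at 91.6 ± 21.6 normalized CPM in B6→B6 (n = 5) and 55.3 ± 13.7 in HLA→B6 mice (n = 3; log2 fold change -0.79, SE 0.25, adjusted p 0.0575). Ech1 had -0.50 (SE 0.18, adjusted p 0.0890) with no overlap of the groups, and Eci2, which prepares unsaturated chains for oxidation, had -0.43 (SE 0.20, adjusted p 0.167). Counted together, 5 of 5 tested peroxisomal members had a negative value and an unadjusted p under 0.05, as did 14.7% of all genes tested, and 1 of 5 passed the adjusted threshold. In the C1q-free cells the first count was 3 of 5, without Acaa1a and Eci2. Ehhadh, a further bifunctional enzyme, was not tested, with 25 UMIs over the B6→B6 and 4 over the HLA→B6 mice.

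**Figure D3:**
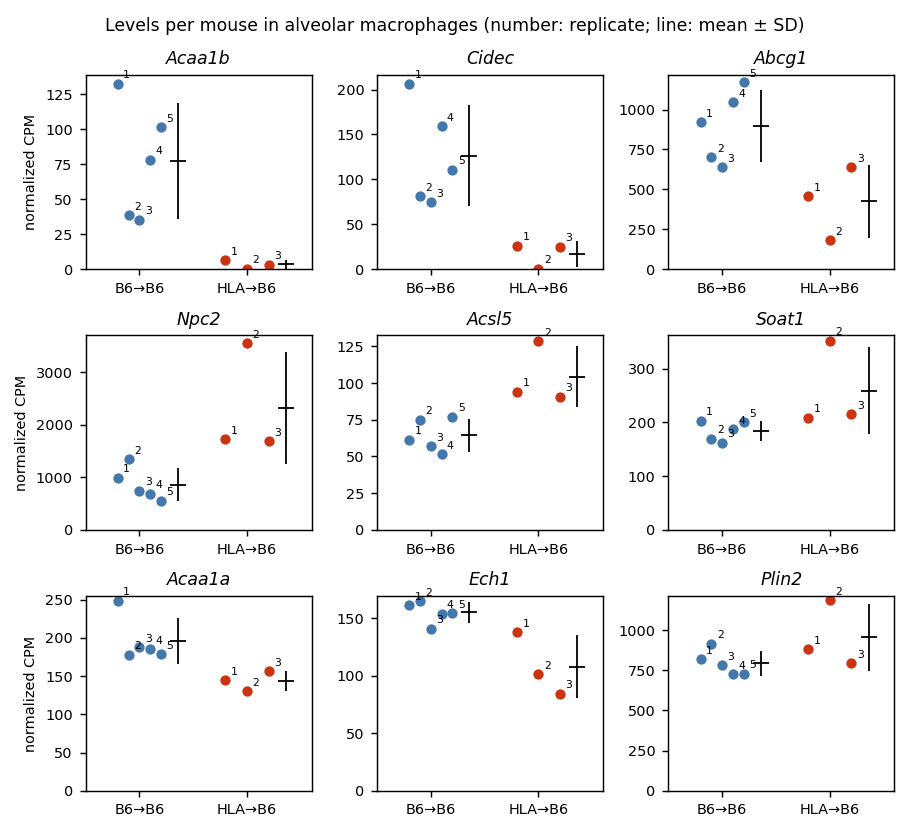
Normalized CPM per mouse in alveolar macrophages for 9 members (vertical axes, linear, from 0), with B6→B6 mice in blue, HLA→B6 mice in red, the replicate number beside each point, and the mean ± SD as a black line. All HLA→B6 mice lie below all B6→B6 mice for Acaa1b, Cidec, Acaa1a and Ech1 and above them for Npc2, Acsl5 and Soat1, while the groups overlap for Abcg1 and Plin2.

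Cidec (chr6:113424634-113435760, minus strand) was at 207, 81.4, 74.4, 159 and 111 normalized CPM in B6→B6 replicates 1 to 5 and at 25.9, 0.337 and 25 in HLA→B6 replicates 1 to 3. The groups did not overlap, and HLA→B6 replicate 2 held 1 UMI. The log2 fold change was -3.25 (SE 0.82, adjusted p 0.0284). It was -1.96 (SE 0.55, adjusted p 0.0527) in the C1q-free cells, where it no longer passed, though it did with the cells sharing a barcode left out as well (-1.998, SE 0.54, adjusted p 0.0444), and it did not pass without B6→B6 replicate 1 or 4 either. Without HLA→B6 replicate 2 it was -2.28 (SE 0.43, adjusted p 0.0185). In cells thinned to 1000 UMIs, 8.29% to 23.3% of B6→B6 and 0.139% to 3.62% of HLA→B6 alveolar macrophages had a Cidec UMI (12.0% to 34.6% and 0.195% to 6.56% unthinned), against 0.416% at most in T cells.

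The remaining droplet genes did not pass the test. Plin2 was at 794 ± 78.2 normalized CPM in B6→B6 and 954 ± 206 in HLA→B6 mice (log2 fold change 0.27, SE 0.17, adjusted p 0.319). Soat1, which esterifies cholesterol, was at 163 to 203 in B6→B6 and at 208, 352 and 216 in HLA→B6 mice, without overlap and with an adjusted p of 0.111. Dgat2 had a log2 fold change of -1.39 (SE 0.50, adjusted p 0.0938), and HLA→B6 replicate 2 was again lowest with 5.72 normalized CPM. Dgat1 had 0.60 (SE 0.43, adjusted p 0.382).

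Npc2 (chr12:84754562-84773152, minus strand) was at 991, 1341, 746, 693 and 552 normalized CPM in B6→B6 replicates 1 to 5 and at 1732, 3555 and 1687 in HLA→B6 replicates 1 to 3. Each HLA→B6 mouse lay above all B6→B6 mice, and replicate 2 was highest. The log2 fold change was 1.43 (SE 0.31, adjusted p 0.0178). It was 1.45 (SE 0.33, adjusted p 0.0211) in the C1q-free cells and 1.74 (SE 0.25, adjusted p 0.00145) without the cells that shared a barcode. Without HLA→B6 replicate 2 it was 1.00 (SE 0.28) and did not pass (adjusted p 0.0765), but it did with the cells sharing a barcode left out as well (1.29). The call in the C1q-free cells was lost in 5 of 8 fits that left out 1 mouse, with 0.74 (adjusted p 0.125) without HLA→B6 replicate 2 and adjusted p of 0.0503 to 0.0611 without B6→B6 replicate 1, 3, 4 or 5.

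At 1000 UMIs per cell, 39.1% to 55.1% of B6→B6 alveolar macrophages and 67.5% to 90.5% of HLA→B6 ones had an Npc2 UMI (62.6% to 79.4% and 71.5% to 94.2% unthinned). In T cells the thinned shares were 36.3% to 43.0% and 35.98% to 38.3%, so this gene is found in T cells as well, at a like share in both groups. Its partner Npc1, the membrane protein that moves cholesterol out of the lysosome, was at 128 ± 28.8 and 126 ± 5.33 normalized CPM (log2 fold change -0.03, SE 0.19, adjusted p 0.947). Lipa had 0.59 (SE 0.22, adjusted p 0.104), and passed without the cells that shared a barcode, at 0.68 (SE 0.21, adjusted p 0.0470).

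Acsl5 (chr19:55251938-55297720, plus strand), an acyl-CoA synthetase, was at 61.3, 75.0, 56.8, 51.6 and 77.2 normalized CPM in B6→B6 mice and at 94.1, 129 and 90.6 in HLA→B6 mice, without overlap. Its log2 fold change of 0.74 (SE 0.21, adjusted p 0.0385) passed in 17 of 38 alternatives, a count that includes the linked libraries alone, which hold 1 HLA→B6 mouse. It did not pass in the C1q-free cells (0.74, SE 0.31, adjusted p 0.194), in the unlinked libraries (0.61, adjusted p 0.266) or with 1 mouse left out, for 3 of the 5 B6→B6 mice and for HLA→B6 replicate 1 or 2. Of the other synthetases, Acsl1 had 1.07 (SE 0.45, adjusted p 0.145), with 91.2 normalized CPM in HLA→B6 replicate 2 against 11.8 to 45 in the other 7 mice, and Acsl4 had 0.22 (SE 0.24, adjusted p 0.585). Cd36 had -0.26 (SE 0.27, adjusted p 0.571).

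None of the 8 tested mitochondrial genes passed. Cpt1a, the entry step of fatty acids into mitochondria, was at 136 ± 16.8 normalized CPM in B6→B6 and 85.4 ± 32.9 in HLA→B6 mice, without overlap (log2 fold change -0.72, SE 0.26, adjusted p 0.0908). Hadha and Hadhb, the 2 subunits of the trifunctional protein, had -0.56 (SE 0.22) and -0.51 (SE 0.26), with adjusted p of 0.119 and 0.218. The values of Acadm, Acadl and Acadvl, the medium, long and very long chain dehydrogenases, were -0.48, 0.35 and 0.15, and those of Acaa2 and Eci1 were 0.16 and 0.08.

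Among the genes of cholesterol export, Abcg1 was at 920, 701, 637, 1046 and 1170 normalized CPM in B6→B6 replicates 1 to 5 and at 457, 182 and 637 in HLA→B6 replicates 1 to 3. HLA→B6 replicate 3 overlapped with B6→B6 replicate 3, and replicate 2 was lowest. The log2 fold change of -1.09 (SE 0.36) did not pass (adjusted p 0.0683). It passed without the cells that shared a barcode (-1.13, SE 0.35, adjusted p 0.0420) and by DESeq2 (-1.07, adjusted p 0.0277), and was -0.69 (SE 0.33, adjusted p 0.260) in the C1q-free cells. Abca1 had 0.63 (SE 0.33, adjusted p 0.226), and -0.05 (SE 0.48, adjusted p 0.974) in the C1q-free cells, and Nr1h3 0.23 (SE 0.25, adjusted p 0.595).

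The genes of synthesis showed no call. Hmgcs1, which encodes an early enzyme of cholesterol synthesis and carries the sterol regulatory element core shown above, was at 73.4 ± 18.1 and 97.1 ± 53.5 normalized CPM (log2 fold change 0.31, SE 0.34, adjusted p 0.592). Srebf2, the factor that drives this pathway, had 0.08 (SE 0.25), and Insig1, which holds it back when sterols are plentiful, had -0.05 (SE 0.30). Srebf1, the factor of fatty acid synthesis, had -0.89 (SE 0.34, adjusted p 0.109), and Scd2, a desaturase, had -0.29 (SE 0.52, adjusted p 0.759), with 0.54 (SE 0.52, adjusted p 0.618) in the C1q-free cells.

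In 5 of the 33 tested members, all HLA→B6 mice lay below all B6→B6 mice (Cpt1a, Acaa1a, Acaa1b, Ech1 and Cidec), and in 3 they lay above (Acsl5, Soat1 and Npc2). Of all 5798 genes tested, 10.2% lay below and 9.11% above in this way.

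Without the 793 cells behind shared barcodes, 6 members passed, Acaa1b, Cidec and Abcg1 lower and Npc2, Lipa and Acsl5 higher, while 8.38% of 5454 genes were called lower and 9.7% higher. In the C1q-free alveolar macrophages, Acaa1b and Npc2 passed, while 1.61% of 5034 genes were called lower and 3.93% higher.

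C1q-positive and C1q-free alveolar macrophages of the same HLA→B6 graft were also set side by side. They were compared as plain CPM in cells with at least 1000 UMIs, as a description, because the cells of a mouse are not replicates and a cell with no C1q UMI may still express C1q. In all 3 HLA→B6 mice the C1q-positive cells had less of 10 members (Acaa1a, Scd1, Scd2, Dgat1, Soat1, Plin2, Cidec, Abcg1, Srebf2 and Hmgcs1) and more of 3 (Decr1, Npc2 and Abca1). Counted over genes tested in the comparison of the groups, these were 9 and 2 of 33 members, against 24% and 10.1% of all 5798 genes, so the counts are close to those of genes in general. Cidec stood at 63.1, 2.22 and 50.4 CPM in the C1q-free and at 8.80, 0 and 10.1 CPM in the C1q-positive cells of HLA→B6 replicates 1 to 3. The C1q-free cells of the B6→B6 mice had 105 to 245 CPM, so the C1q-free cells of all HLA→B6 mice were still below them.

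Npc2 showed the opposite order, with 1153, 2816 and 1059 CPM in the C1q-free and 1726, 2898 and 1810 CPM in the C1q-positive cells, against 501 to 850 CPM in the C1q-free cells of B6→B6 mice. Abcg1 was at 751, 198 and 891 CPM in the C1q-free and at 282, 140.3 and 471 CPM in the C1q-positive cells. The macrophage marker Chil3 moved with these genes, at 6825, 808 and 6067 CPM in the C1q-free and 1101, 150.0 and 2256 CPM in the C1q-positive cells. HLA→B6 replicate 2 was thus low in Chil3, Cidec and Abcg1 in both classes of cells. How far the share of C1q-positive cells contributes to each difference between the groups was not tested. The C1q-free values given above do not bound it, since a cell with no C1q UMI may still express C1q.

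**Figure D4:**
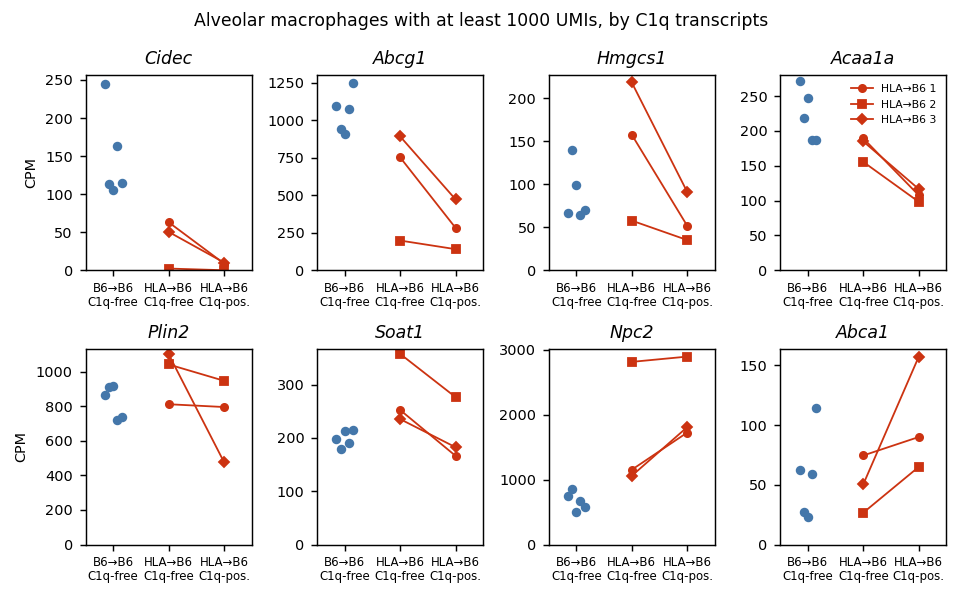
Level in CPM (vertical axes, linear, from 0) of 8 members in alveolar macrophages with at least 1000 UMIs, for the C1q-free cells of 5 B6→B6 mice (blue) and for the C1q-free and C1q-positive cells of 3 HLA→B6 mice, joined by a line per mouse (red). Lines fall for Cidec, Abcg1, Hmgcs1, Acaa1a, Plin2 and Soat1 and rise for Npc2 and Abca1.

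Of 75 other genes of lipid metabolism in 4 lists, 50 were tested in alveolar macrophages and 7 (14%) passed, close to the 12.3% of all genes that passed in either direction. Among other genes of fatty acid oxidation, 13 of 21 were tested and 2 fell, with a median log2 fold change of -0.54 (-0.03 over all genes tested). These were Acot1, an acyl-CoA thioesterase (-3.94, SE 0.39, adjusted p 0.00191), and Scp2, a peroxisomal sterol carrier and thiolase (-0.79, SE 0.20, adjusted p 0.0282). Acot1 stood at 34.3 to 67.8 normalized CPM in B6→B6 and at 3.92, 2.02 and 6.25 in HLA→B6 mice, and passed as well in the C1q-free cells (-3.17, SE 0.58, adjusted p 0.00664). Scp2 did not pass there (-0.86, SE 0.27, adjusted p 0.0851), while Echs1, the mitochondrial enoyl-CoA hydratase of the same list, rose (0.91, SE 0.23, adjusted p 0.0334). Without the cells that shared a barcode, Echs1 rose as well and Etfb, a subunit of the electron transfer flavoprotein, fell (-0.68, SE 0.21, adjusted p 0.0446).

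Among other genes of lipid uptake and cholesterol export, 14 of 17 were tested and 1 rose and 2 fell, with a median of 0.07. Fabp5, a fatty acid binding protein, rose (1.63, SE 0.37, adjusted p 0.0200). Fabp1, another member of that family, fell (-3.26, SE 0.79, adjusted p 0.0246), as did Ch25h, which makes the LXR ligand 25-hydroxycholesterol (-2.87, SE 0.49, adjusted p 0.00839). Apoe, an acceptor of exported cholesterol, was at 24.1 to 6627 normalized CPM in B6→B6 and 21584 to 25807 in HLA→B6 mice but did not pass (2.92, SE 0.96, adjusted p 0.0709). It passed in the C1q-free cells (4.56, SE 0.98, adjusted p 0.0161), as did Fabp5 and Ch25h, while Fabp1 did not.

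Of other genes of fatty acid synthesis and lipid droplets, 9 of 17 were tested and 2 fell, with a median of -0.43. They were Abhd5, the coactivator of triglyceride lipase on droplets (-0.85, SE 0.20, adjusted p 0.0241), and Pparg, the nuclear receptor that induces lipid storage genes (-0.95, SE 0.26, adjusted p 0.0380). Neither passed in the C1q-free cells. Of 20 other genes of cholesterol synthesis, 14 were tested and 0 passed by edgeR, with 0 at an unadjusted p under 0.05 and a median of 0.22.

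In the other 7 cell types with enough cells, 0 of 140 tests of a member passed by edgeR or by DESeq2, and 19 and 12 had an unadjusted p under 0.05, which by edgeR held for 6.11% of all tests in these types. Few genes of any kind were called there, from 0% of those tested in leukocytes, myeloid cells and natural killer cells to 0.604% in lung structural cells, with 0.023% in monocytes, 0.0698% in T cells and 0.117% in B cells. In leukocytes, 2 HLA→B6 mice had the 10 cells required. The values nearest to the threshold included Acsl1 in lung structural cells, at 22.9 ± 8.94 normalized CPM in B6→B6 and 7.90 ± 4.35 in HLA→B6 mice (log2 fold change -1.63, SE 0.45, adjusted p 0.201).

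Monocytes, the other phagocytes with high Npc2, had a log2 fold change of -0.11 for Npc2 (SE 0.16, adjusted p 0.999), and one of 0.94 for Abcg1 (SE 0.30, adjusted p 0.495), which rested on 47.8 ± 9.55 and 92.2 ± 32.7 normalized CPM. Insig1 in monocytes had -1.21 (SE 0.40, adjusted p 0.541). In T cells 9 of 28 tested members had an unadjusted p under 0.05, as did 7.45% of all genes tested there, among them Acadl (0.62, SE 0.21, adjusted p 0.450) and Dgat1 (0.88, SE 0.31, adjusted p 0.504). Acsl5 was also among these 9 members in T cells, and in B cells it had 0.79 (SE 0.32, unadjusted p 0.0253 by edgeR). In natural killer cells Npc2 had 0.64 (SE 0.19, adjusted p 0.998).

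**Figure D5:**
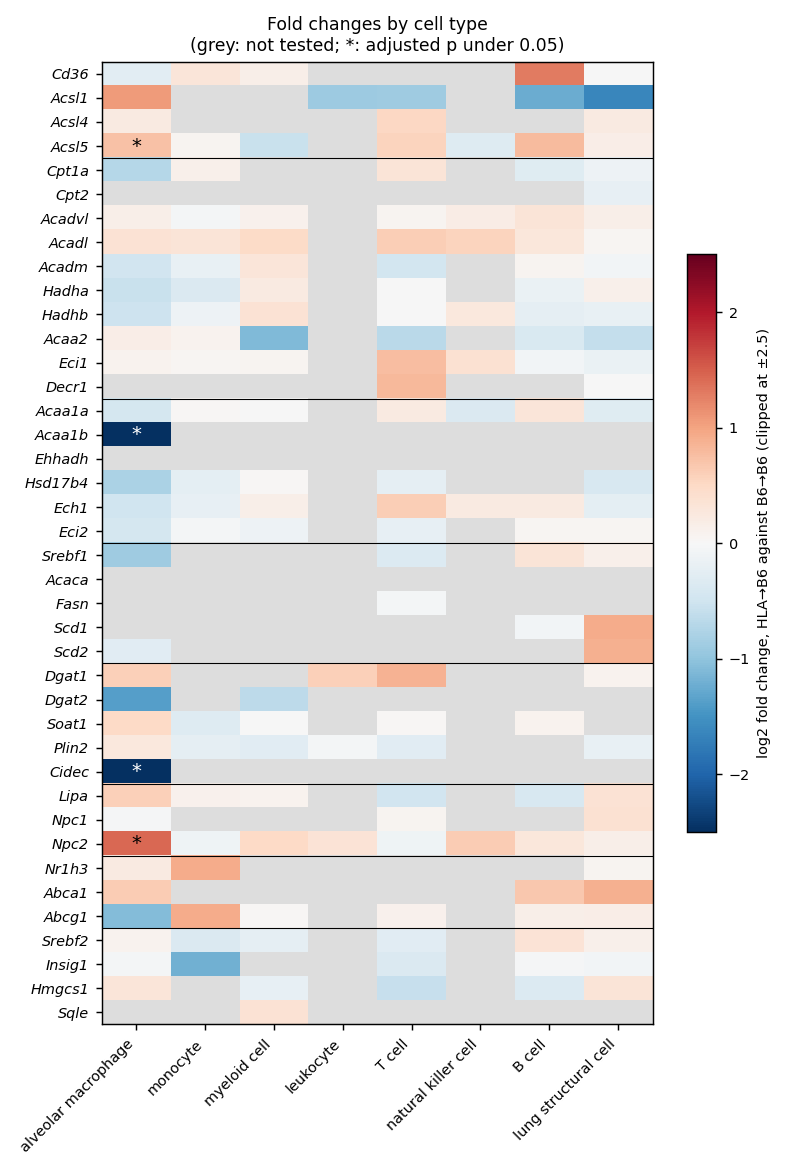
Log2 fold change, HLA→B6 against B6→B6, of the 40 members (rows) in 8 cell types (columns), red for higher and blue for lower in HLA→B6 grafts, grey where not tested, with colours clipped at 2.5. Stars, for an adjusted p under 0.05, stand at Acsl5, Acaa1b, Cidec and Npc2 in alveolar macrophages.

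The difference between cell types was tested directly, as the group effect in alveolar macrophages minus that in all other cells of the same mice. Of the 40 members 1 passed, where 1.03% of 11102 genes did. This was Acaa1b, with a difference of -3.74 on the log2 scale (SE 0.72, adjusted p 0.0320). With 0 to 9 UMIs per mouse in the other cells, it was too low there to show a group effect, so this value repeats its difference in alveolar macrophages. It did not pass without B6→B6 replicate 1, 4 or 5 or HLA→B6 replicate 1 or 2. Abcg1 (-1.62, SE 0.40, adjusted p 0.0692) and Npc2 (1.28, SE 0.32, adjusted p 0.0740) did not pass, but both did without the cells that shared a barcode, at -1.68 (adjusted p 0.0433) and 1.51 (adjusted p 0.0206). Cidec (-1.07, SE 1.49, adjusted p 0.790) and Acsl5 (0.51, SE 0.26, adjusted p 0.368) passed in neither fit. Cidec had 0 to 10 UMIs per mouse in the other cells. Against monocytes alone, Npc2 differed by 1.52 (SE 0.34, adjusted p 0.0285) and Abcg1 by -2.09 (SE 0.40, adjusted p 0.0171), whereas Acaa1b had -2.65 (SE 1.76, adjusted p 0.495).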

How the data were processed

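Single-cell RNA sequencing counts of 8 lung grafts were taken as deposited. The authors made the UMI counts with Cell Ranger on mm10, dropped barcodes of low depth and rarely detected genes, corrected for free RNA with SoupX, and named cells with Seurat and clustifyr. The sources used here do not state whether the SoupX correction is in the deposited counts. Strand use in counting is not stated.

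Counts were summed per mouse and cell type (at least 10 cells), scaled by TMM, filtered by filterByExpr (minimum count 10) and compared by edgeR 4.0.16 with an adjusted p of 0.05, without covariates. The interaction fit had the mouse as a block. Alternatives used DESeq2 1.42.0, other scalings, filters and cell sets, the replicate number as a block, and fits without each mouse. Scrublet (expected rate 0.06) marked 295 cells (1.42%) as doublets, kept in the main values. Named were all 40 members, list genes past the threshold and markers. Apoe and the C1q genes were taken up after their values were seen. A further marker list is not reported here. Members and lists were chosen with earlier results of these data known. On simulated alveolar macrophage sums of 5798 genes, 96.5% of 200 genes changed 4-fold were called, and 5.39% of calls fell on unchanged genes. Gene coordinates are from GENCODE vM21 (GRCm38). Python 3.11.15, scanpy 1.11.5 and R 4.3.3 were used.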

Additional observations from a re-analysis of the deposited data

Results flagged for a closer look

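Acaa1b passed the test of the difference between cell types, where the log2 group effect in alveolar macrophages minus that in all other cells was -3.74 (SE 0.72, adjusted p 0.0320 by edgeR). It had 0 to 9 UMIs per mouse in the other cells, too few to show a group effect there, so the value repeats the difference within alveolar macrophages. It did not pass when B6→B6 replicate 1, 4 or 5 or HLA→B6 replicate 1 or 2 was left out, and against monocytes alone it was -2.65 (adjusted p 0.495).

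In 3 of the 40 members checked, 1 of the 5 B6→B6 mice lay far from the others in alveolar macrophages, by Dixon's criterion, which chance meets in about 1 of 20 groups. Acaa1a was highest in B6→B6 replicate 1 (248 normalized CPM, next 188), Npc1 in replicate 5 (178, next 123) and Hmgcs1 in replicate 2 (105, next 72.5).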

How the results depend on the processing

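The number of members called in alveolar macrophages (4) was 7 with no filter on low counts and 9 with the set of linked libraries as a term. It was 10 with library size as the only scaling and 2 in the C1q-free cells. With 1 mouse left out, alone or together with the cells sharing a barcode or the C1q-positive cells, it ran from 1 to 10. It fell to 2 without B6→B6 replicate 1 or 4 or HLA→B6 replicate 2, and rose to 7 without HLA→B6 replicate 3. Of the fits with 1 mouse left out, calls over all genes are given below only for the one without HLA→B6 replicate 2. The counts of these fits are therefore not read as a trait of the members. Library size as the only scaling moved the median log2 fold change of all genes from -0.03 to -0.26 and the calls over all genes from 369 higher and 343 lower to 223 and 690, and all 5 tested peroxisomal genes passed there. Calls over all genes were 617 and 466 with no filter, 630 and 623 with the linked set as a term, and 148 and 105 under the replicate block. They were 198 and 81 in the C1q-free cells and 94 and 86 without HLA→B6 replicate 2. The linked libraries alone hold 1 HLA→B6 mouse, so their calls are left out of these numbers.

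The replicate number as a block (replicate block) also called 4 members, with Abca1 in place of Acsl5. Same-numbered mice did not all deviate together (correlations -0.05, 0.32 and -0.25), so the numbers were not read as pairs. The names of the cells number the HLA→B6 mice differently from the sample labels. The labels were followed in the block and in all replicate numbers here, and a pairing by the cell names was not tested. The difference between alveolar macrophages and other cells was called for 1 member and for 114 of all 11102 genes tested. Against monocytes alone it was called for 2 members and 153 of 6382 genes. Without cells sharing a barcode it was called for 3 members and 225 of 11094 genes, so calls rose for genes in general. With 1 mouse left out it was called for 0 to 2 members, and the share of all genes is not given here. In other cell types 0 members were called under all alternatives run. The 2-fold criterion for levels in alveolar macrophages was met by 8 members and 433 of 11102 genes. Without HLA→B6 replicate 2 it was met by 11 members and 578 genes, and under the other alternatives that kept it by 8 members. A stricter criterion of at least 4-fold was met by 6 members and 155 genes. In 13 members that passed in neither fit the sign changed under 1 or more alternatives, 78 times of 1246. In none of these cases was the cause tested. With 3 HLA→B6 mice and 105 to 685 cells a mouse, members of few UMIs, such as Ehhadh, Fasn and Scd1, could not be compared in alveolar macrophages.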
